A study of Mus musculus with 15 samples.

Results

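The transcripts of 10 genes that form or control maturation promoting factor were followed in mouse oocytes: Ccnb1, Ccnb2, Ccnb3, Cdk1, Cdc25a, Cdc25b, Cdc25c, Wee2, Mos and Fbxo43. They were taken by symbol, matched to Ensembl identifiers with the GENCODE vM21 annotation of GRCm38, from the 55401 identifiers counted in each library. All 10 were found, and all 10 were among the 21009 genes that passed the filter on low counts. Their values come from 15 libraries, each made from a pool of 6 oocytes at the germinal vesicle stage from Kunming mice, with 3 libraries in each of 5 groups. Oocytes of the in vivo group (IVV, replicates 2, 3 and 4) came from antral follicles punctured in the ovary, of mice whose age is not given in the sources used here. Those of the other groups came from preantral follicles, dissected from mice aged 12 to 14 days and grown in vitro for 10 or 6 days, without neurotrophin-4 (IVG day 10, IVG day 6) or with NT-4 at 100 ng/mL (IVG-NT day 10, IVG-NT day 6). Pooling hides the differences between single oocytes, and the number of mice behind a pool is not given in the sources used here, so P-values measure the spread between these libraries.

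Maturation promoting factor is the kinase Cdk1 bound to a B cyclin, and its activity takes the oocyte from the germinal vesicle stage into meiosis. In the arrested oocyte the kinase Wee2 keeps Cdk1 phosphorylated and inactive, and the Cdc25 phosphatases remove that phosphate when meiosis resumes. Mos, the kinase at the head of the oocyte MAPK cascade, and Fbxo43 (Emi2), an inhibitor of the anaphase-promoting complex, hold the mature egg at the second metaphase. Growing oocytes store many of these transcripts and translate them later, so a transcript level is not a measure of kinase activity.

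The start regions of the B cyclins and Cdk1, the subunits of the factor itself, are shown because they share or lack a pair of promoter elements. RefSeq start regions, from 250 bases before to 50 bases after the start site (GRCm38.p6, 300 bases), were matched for 7 of the 10 members and not for Mos, Fbxo43 and Cdc25c. Below, each is printed 5′ to 3′ on the strand of its gene, which is the minus strand for all of them, for Ccnb1 (chr13:100786437-100786736), Ccnb2 (chr9:70421505-70421804), Ccnb3 (chrX:7041570-7041869) and Cdk1 (chr10:69352863-69353162). Capitals mark the CCAAT box (CCAAT, or ATTGG on the other strand) and the cell cycle genes homology region, CHR (TTTGAA or TTTAAA, or TTCAAA on the other strand), the pair of elements known from G2/M promoters.
Ccnb1: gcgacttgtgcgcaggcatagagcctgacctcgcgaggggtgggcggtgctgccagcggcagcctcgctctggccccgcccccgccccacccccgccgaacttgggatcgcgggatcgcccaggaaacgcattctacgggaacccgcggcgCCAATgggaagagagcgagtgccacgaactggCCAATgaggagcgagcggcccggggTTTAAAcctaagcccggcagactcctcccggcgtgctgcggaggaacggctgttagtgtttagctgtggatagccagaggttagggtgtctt
Ccnb2: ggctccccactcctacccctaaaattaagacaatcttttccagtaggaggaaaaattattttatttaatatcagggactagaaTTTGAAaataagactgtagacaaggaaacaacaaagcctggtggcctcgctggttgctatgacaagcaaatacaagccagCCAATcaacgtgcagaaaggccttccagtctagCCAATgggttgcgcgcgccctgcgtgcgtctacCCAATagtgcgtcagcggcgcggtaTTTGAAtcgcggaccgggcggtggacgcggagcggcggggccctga
Ccnb3: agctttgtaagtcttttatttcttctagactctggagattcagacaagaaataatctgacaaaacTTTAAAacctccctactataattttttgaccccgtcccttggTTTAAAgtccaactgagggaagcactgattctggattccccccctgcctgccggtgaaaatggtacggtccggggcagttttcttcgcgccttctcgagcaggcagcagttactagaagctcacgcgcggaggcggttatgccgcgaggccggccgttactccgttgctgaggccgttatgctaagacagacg
Cdk1: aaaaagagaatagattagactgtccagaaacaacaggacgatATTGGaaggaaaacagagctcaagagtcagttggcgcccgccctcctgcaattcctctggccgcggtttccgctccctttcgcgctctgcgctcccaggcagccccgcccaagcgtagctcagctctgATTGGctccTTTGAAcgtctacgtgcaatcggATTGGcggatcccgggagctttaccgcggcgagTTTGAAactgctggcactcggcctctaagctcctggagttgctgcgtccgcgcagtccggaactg
The start regions of Ccnb1, Ccnb2 and Cdk1 hold both motifs, and that of Ccnb3 holds 2 CHR matches and no CCAAT box. A CCAAT box was found in 6 of the 7 matched members (37.4% of all 32851 start regions in the table), a CHR in 4 (27.6%) and both in 3 (10.7%). The remaining Cdc25a, Cdc25b and Wee2 regions hold CCAAT without CHR. These are matches of letters in a window, and binding was not measured.

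Totals per library ran from 5.95 M to 55.6 M counts, with the lowest, 5.95 M and 7.13 M, in IVG-NT day 6 replicates 1 and 2. All 10 oocyte markers (zona pellucida genes, Gdf9, Bmp15 and others) were detected in every library, with a summed level of 11288 to 21081 normalized CPM (counts scaled to a common library size by TMM), against 30.1 to 321 for 10 granulosa cell markers, 0 to 35.0 for 6 theca and stroma markers and 0 to 49.2 for 4 macrophage markers. Libraries stood apart in the share of counts on the annotated rRNA gene CT010467.1. It took 12.5% to 37.9% in 9 libraries (replicates 1 and 2 of the 4 in vitro groups, and replicate 3 of IVV), called rRNA-rich here, and 0.187% to 0.714% in the other 6, called rRNA-poor. This is a property of libraries found in the counts, not a group of the study, and the 5% limit that separates them was set after the shares were seen. Each group holds both kinds, so the kind can be compared with group as a covariate. In the 4 in vitro groups the rRNA-poor library is always replicate 3, so there the kind and the replicate number cannot be told apart, and the test of the kinds takes libraries of one number as independent.

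The highest of the members, in FPKM computed here from the summed exon length of each gene, was Mos in 14 of 15 libraries, with a median of 328 FPKM (range 76.7 to 960). Wee2 followed with a median of 108 (51.7 to 173) and Ccnb1 with 85.7 (27.9 to 213), then Ccnb2 with 59.9 (20.9 to 410) and Fbxo43 with 41.3 (16.1 to 93.7). Cdc25b (median 15.1), Ccnb3 (5.39 to 82.0), Cdk1 (median 12.0) and Cdc25a (11.2) lay close together, and Cdc25c was the lowest member in 11 of 15 libraries with a median of 2.94 FPKM. Mos lay above Wee2 in 15 of 15 libraries and Fbxo43 above Cdc25b in 15 of 15. The order of other neighbours turned with the kind of library. Ccnb2 lay above Ccnb1 in 6 of 6 rRNA-poor libraries, whereas Ccnb1 lay above Ccnb2 in 6 of 9 rRNA-rich ones. Cdk1 lay above Cdc25a in 6 of 6 rRNA-poor libraries and in 1 of 9 rRNA-rich libraries. Ccnb3 lay above Cdk1 in 9 of 9 rRNA-rich libraries and in 0 of 6 rRNA-poor ones. The order of close neighbours depends on the length used. The summed exons of Ccnb1 have 4217 bases and its principal annotated transcript 2489, and those of Cdc25a 8023 and 3632, but Ccnb2 has 1531 by either. The order by transcript length was not computed.

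**Figure D1:**
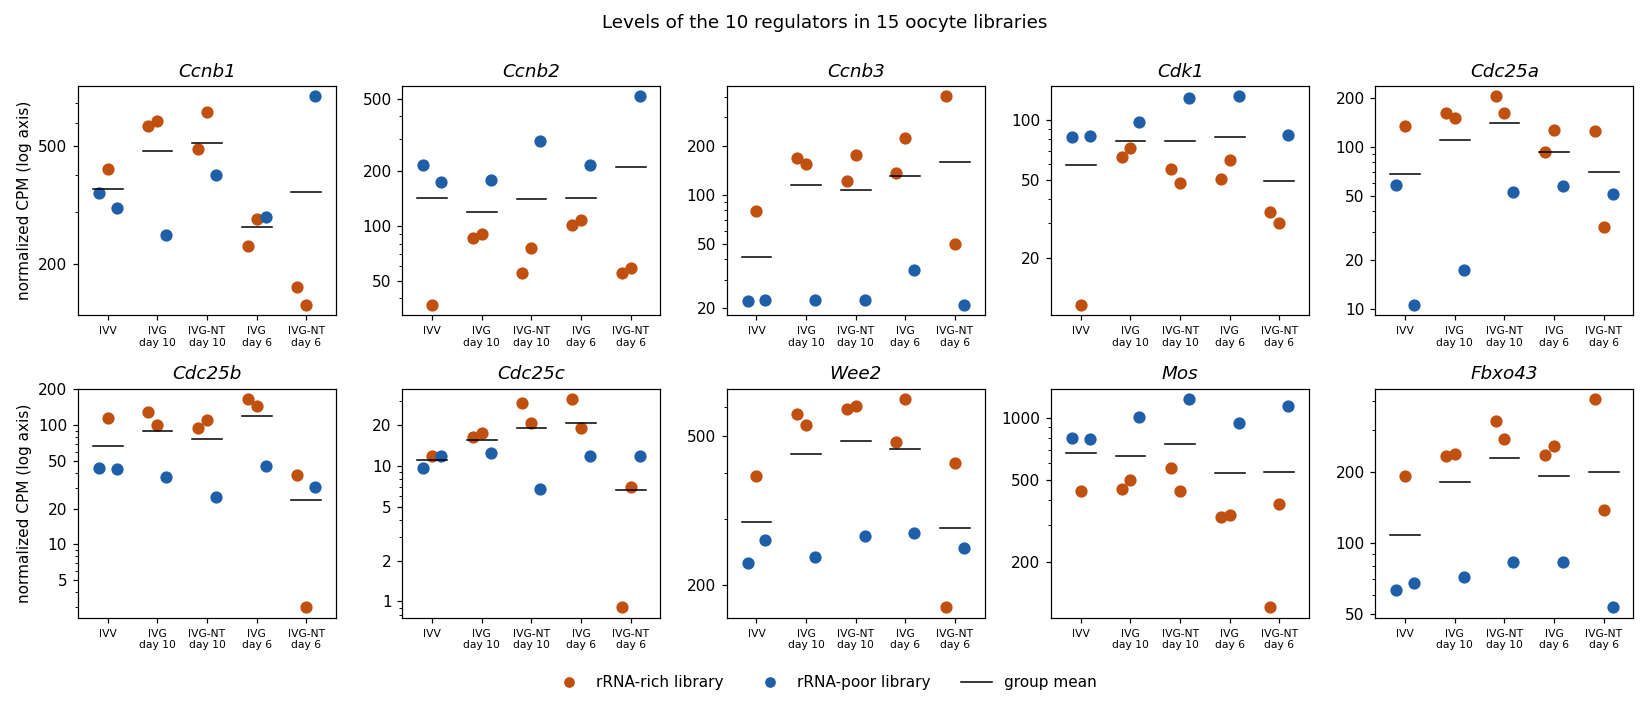
Normalized CPM (log axis) of the 10 regulators in the 15 libraries by group, with one point per library, coloured by the kind of library, and a line at the group mean. Within every group the rRNA-poor libraries sit above the rRNA-rich ones for Ccnb2, Cdk1 and Mos, and below them for Ccnb3 and Fbxo43.

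Whether growth in vitro or NT-4 changed the transcripts of these regulators was asked in 6 comparisons of 3 libraries against 3. A member was called where its log2 fold change was larger than 1 in size and its unadjusted P was below 0.05, the threshold of the study's methods, in edgeR's quasi-likelihood test, fitted over all 15 libraries and all 21009 genes. Of 60 tests of a member, 1 gave a call. With Benjamini-Hochberg adjustment over all genes tested no member passed 0.05 in edgeR's test in any of the 6 comparisons, nor did any other gene.

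Between oocytes grown for 10 days in vitro and in vivo, 0 of 10 members were called, where 2.76% of all genes tested were. The log2 fold changes of IVG against IVV ran from -0.27 (Ccnb2) to 1.48 (Ccnb3), with standard errors of 0.60 to 1.11, and the smallest P of a member was 0.201. Ccnb3, which mouse oocytes need for the first meiotic anaphase, had the largest difference, with 22.0, 79.1 and 22.5 CPM in IVV and 168, 155 and 22.4 CPM in IVG. In both groups its high values were those of the rRNA-rich libraries, 1 in IVV and 2 in IVG. Cdc25c, a phosphatase that female mice can lack without loss of fertility, was the 1 member whose groups did not overlap, against 11.9% of all genes. It had 9.55, 11.7 and 11.7 CPM in IVV and 16.4, 17.5 and 12.4 CPM in IVG, a log2 fold change of 0.49 (SE 0.999, unadjusted P = 0.633, adjusted p = 1 in edgeR's test). Of its exon bases, 12.7% lie on the opposite strand of Gm3550, and the protocol keeps no strand, so those reads cannot be told apart.

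With NT-4, 0 of 10 members were called against IVV, where 3.29% of all genes were. No member separated the groups without overlap (11.6% of all genes did), and the log2 fold changes ran from -0.02 (Ccnb2) to 1.37 (Ccnb3, SE 1.11). Both day 10 comparisons share the IVV libraries. Side by side, Fbxo43 had 0.75 (SE 0.83) without and 1.09 (SE 0.83) with NT-4, Wee2 0.61 and 0.73 (SE 0.60 each), and Mos -0.06 and 0.14 (SE 0.75 each). None of these passed the test (smallest P of a member with NT-4 0.211).

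Cdk1, the catalytic subunit, had 82.1, 11.5 and 83.6 CPM in IVV, 65.3, 72.4 and 97.7 in IVG and 56.6, 48.0 and 131 in IVG-NT day 10. The 11.5 CPM of IVV replicate 3, the one rRNA-rich library of its group, was the lowest of all 15. With kind added as a covariate, Cdk1 was called higher in IVG than in IVV (log2 fold change 1.25, SE 0.54, unadjusted P = 0.0358, adjusted p = 1 in edgeR's test). That fit called 3.83% of all genes. Among rRNA-rich libraries alone the difference was 2.60 for IVG and 2.21 for IVG-NT, both against that single library, which is assumed there to vary like the libraries of the other groups. Between the rRNA-poor libraries, 1 in each day 10 group and 2 in IVV, the differences of log2 CPM were 0.24 and 0.66.

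NT-4 itself, compared on day 10, left 0 of 10 members called and 0 of 10 without overlap, where 1.24% and 3.59% of all genes were. The log2 fold changes of IVG-NT against IVG ran from -0.21 (Cdc25b) to 0.35 (Cdc25a), with standard errors of 0.60 to 1.09. The smallest P of a member was 0.689. Ccnb1, the main partner of Cdk1, had 586, 608 and 251 CPM without NT-4 and 490, 652 and 398 CPM with it. Wee2 had 576, 536 and 239 CPM without and 591, 602 and 270 CPM with it. In each group the third, rRNA-poor library was the low one for both genes, and the groups overlapped. Same-numbered libraries deviated together in this comparison, but they are also of the same kind, so pairing by number was not shown. Between them Wee2 was higher with NT-4 in 3 of 3 pairs (differences of log2 CPM of 0.04, 0.17 and 0.18), as were Fbxo43 (0.49, 0.21 and 0.21) and Cdc25a (0.34, 0.11 and 1.59). The other members had mixed signs. How many of all genes keep the same sign in 3 of 3 pairs was not computed, so this is a description. A fit blocked on the replicate number called 0 of 10 members, and the share of all genes that it called was not computed.

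On day 6, NT-4 gave the 1 call, where 11.6% of all genes were called. Cdc25b, the phosphatase that mouse oocytes need to leave the germinal vesicle stage, had 166, 144 and 45.9 CPM without NT-4 and 38.1, 2.96 and 30.1 CPM with it. All 3 libraries with NT-4 lay below all 3 without it, where 8.45% of all genes did not overlap in one direction or the other. The log2 fold change was -2.32 (SE 0.95, unadjusted P = 0.0260, adjusted p = 0.393 in edgeR's test), and the exact permutation test gave 0.1, the smallest p possible for 3 against 3. The lowest value, 2.96 CPM, rests on 17 counts in IVG-NT day 6 replicate 2, and both shallow libraries belong to the NT-4 group. Between the rRNA-rich libraries the mean difference of log2 CPM was -3.85 (2 against 2), and between the deeper rRNA-poor ones it was -0.61 (1 against 1). The call was lost in 6 of 15 alternatives, among them leaving out IVG-NT day 6 replicate 2 (-1.75, unadjusted P = 0.0581), IVG day 6 replicate 1 (-2.01) or IVG day 6 replicate 2 (-2.12), and leaving out both shallow libraries (-1.88, unadjusted P = 0.108). That fit called Ccnb1 (1.54, unadjusted P = 0.0312), but it leaves 1 library with NT-4 on day 6, which is assumed to vary like the libraries of the other groups. The NT-4 difference of Cdc25b on day 10 minus that on day 6 was 2.11 (SE 1.29, unadjusted P = 0.121, adjusted p = 0.890 in edgeR's test), so the days were not shown to differ. Of the exon bases of Cdc25b, 92 are shared with Spef1 on the opposite strand.

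The other 9 members on day 6 had log2 fold changes with NT-4 from -1.64 (Cdc25c, SE 1.02) to 0.56 (Ccnb2, SE 0.93). Cdc25c had 31.0, 18.9 and 11.8 CPM without NT-4 and 0.903, 6.96 and 11.9 CPM with it, of which the lowest is 5 counts. Mos had 331, 336 and 948 CPM without NT-4 and 120, 383 and 1141 CPM with it. For both genes the groups overlapped.

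From day 6 to day 10 of culture, 0 of 10 members were called without NT-4 (2.9% of all genes) and 0 of 10 with it (12.7%), and no member separated the days without overlap (7.42% and 11% of all genes). Same-numbered libraries without NT-4, which are also of the same kind, deviated together. Between them Cdc25b was lower on day 10 in 3 of 3 pairs (differences of log2 CPM of -0.36, -0.51 and -0.33). So were Ccnb2 (-0.24, -0.26 and -0.27) and Fbxo43 (-0.02, -0.11 and -0.21). Mos was higher in 3 of 3 pairs (0.44, 0.56 and 0.08), and the other members had mixed signs. How many of all genes keep the same sign was not computed. A fit blocked on the replicate number called 0 of 10 members, and the share of all genes that it called was not computed either. When the kinds of library were read apart, Ccnb1 in rRNA-rich libraries without NT-4 had 230 and 284 CPM on day 6 and 586 and 608 CPM on day 10, and with NT-4 it had 168 and 146 CPM on day 6 and 490 and 652 CPM on day 10. In the rRNA-poor libraries it had 287 CPM on day 6 and 251 on day 10 without NT-4, and 736 and 398 CPM with it. Day 10 was thus above day 6 in 4 of 4 pairs of rRNA-rich libraries with the same number and in 0 of 2 rRNA-poor pairs. The rRNA-rich day 6 libraries with NT-4 are the shallow ones, with 5.95 M and 7.13 M counts. The 736 CPM of IVG-NT day 6 replicate 3 was the highest Ccnb1 value of all 15 libraries. Leaving that library out gave Ccnb1 a day change of 1.72 with NT-4, where the median of all genes was 1.27. In rRNA-rich libraries alone that median was 0. In a fit of the rRNA-rich libraries alone, edgeR's test gave a log2 fold change of 1.19 (SE 0.33, unadjusted P = 0.00807, adjusted p = 1) without NT-4 and of 1.93 (SE 0.34, unadjusted P = 0.000590, adjusted p = 0.0535) with it. The day change differed between the kinds by 2.18 (SE 0.66, unadjusted P = 0.00646, adjusted p = 0.724 in edgeR's test over the 12 in vitro libraries), a test chosen after the values were seen that called 6.11% of all genes and 1 of 10 members. For Cdc25a the same difference was 1.63 (SE 0.87), for Cdc25c 1.56 (SE 1.67) and for Cdc25b 1.39 (SE 1.24), none of them called. Cdc25a was also higher on day 10 in 4 of 4 rRNA-rich pairs, by 0.81, 0.24, 0.70 and 2.33 in log2 CPM, against -1.71 and 0.05 in the rRNA-poor pairs. Without the kinds separated, the day change of Ccnb1 was 0.85 (SE 0.65) and 0.55 (SE 0.65).

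**Figure D2:**
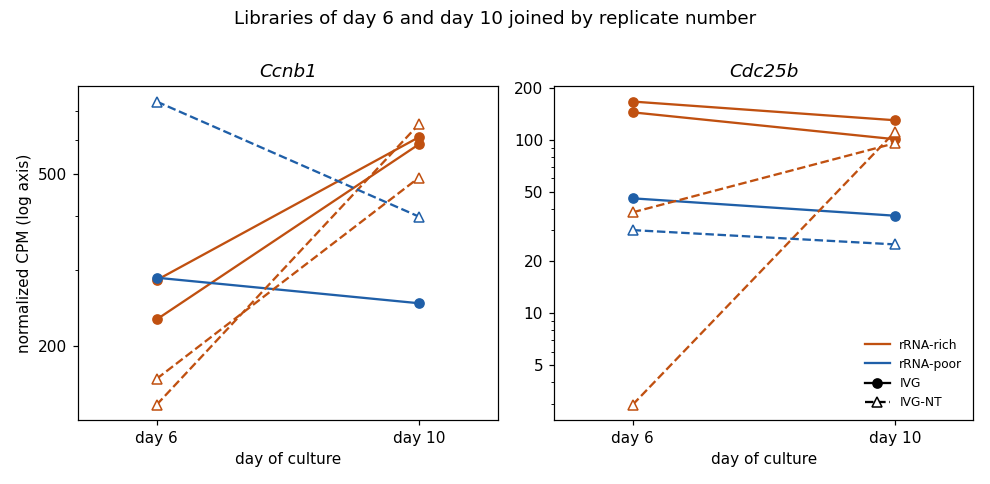
Normalized CPM (log axis) of Ccnb1 and Cdc25b on day 6 and day 10, with one point per library and lines joining libraries of the same replicate number, which the labels do not tie to one culture. The 4 rRNA-rich lines of Ccnb1 go up and the 2 rRNA-poor lines go down, and the Cdc25b value of 2.96 CPM in IVG-NT day 6 stands below all other libraries.

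The difference that did separate members was the one between the kinds of library. With group as a covariate, 7 of 10 members were called, where 35.1% of all genes were, 4 of them higher in rRNA-rich libraries (12.3% of all genes) and 3 lower (22.8%). At an adjusted p under 0.05 in edgeR's test 7 members passed as well, where 23.7% of all genes did. Both rules took Ccnb2, Ccnb3, Cdk1, Cdc25a, Mos and Fbxo43, and these 6 calls were made in each of the 22 settings run. Cdc25b was called without passing the adjustment (log2 fold change 1.21, SE 0.53, adjusted p = 0.112), and its call was lost in 15 of 21 alternatives. Its values over the settings ran from 0.999 to 1.71. Without IVG-NT day 6 replicate 2, where it had 17 counts, it was 1.44 (SE 0.26, adjusted p = 0.00130 in edgeR's test). Without replicate 3 of that group it was 1.71 (SE 0.50, adjusted p = 0.0346), and without both shallow libraries 1.65. Wee2 passed the adjustment with a fold change under the limit (0.85, SE 0.25, adjusted p = 0.0232). The median over all genes tested was -0.54, and 7 members lay above it and 3 (Ccnb2, Cdk1 and Mos) below it. For 5 members, Ccnb2, Ccnb3, Cdk1, Mos and Fbxo43, the kinds did not overlap in any library, as for 13.2% of all genes. The kinds also differed in depth, with totals of 5.95 M to 43.5 M counts in rRNA-rich and 38.5 M to 55.6 M in rRNA-poor libraries, and the summed level of the 10 granulosa cell markers was 45.8 to 321 CPM against 30.1 to 223 CPM. The part of either in these differences was not tested.

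Of the B cyclins, Ccnb2, which can stand in for Ccnb1 in starting meiosis, was lower in rRNA-rich libraries. It had a lowest, median and highest level of 36.9, 76.1 and 108 CPM in the 9 rRNA-rich libraries and of 175, 217 and 515 CPM in the 6 rRNA-poor ones, a log2 fold change of -2.03 (SE 0.32, adjusted p = 0.000514 in edgeR's test). Ccnb3 went the other way, with 49.8, 155 and 403 CPM in rRNA-rich and 21.0, 22.4 and 34.3 CPM in rRNA-poor libraries (2.64, SE 0.46, adjusted p = 0.00113). Ccnb1 overlapped, with 146, 417 and 652 CPM against 251, 328 and 736 CPM (-0.15, SE 0.38), and its sign changed between settings (-0.45 to 0.45).

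The make-up of the B cyclin pool, as shares of the summed FPKM, therefore differed by kind. The size of each share depends on the summed exon length, which for Ccnb1 is 4217 bases against 2489 in its principal transcript. By that choice Ccnb1 is lower beside Ccnb2, with 1531 bases by either length. In the 6 rRNA-poor libraries it was nearly constant across IVV, both days and both treatments, with 31.3% to 38.0% Ccnb1, 59.4% to 65.8% Ccnb2 and 0.892% to 3.46% Ccnb3. In the 9 rRNA-rich libraries Ccnb2 made up 17.2% to 45.9% and Ccnb3 12.3% to 53.7%. Within them Ccnb1 held 59.9% to 64.9% on day 10 and 70.5% in the IVV library, but 24.2% to 41.2% on day 6. The high end of Ccnb3 was the shallow IVG-NT day 6 replicate 1, and without it the day 6 libraries had 13.0% to 26.1%.

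**Figure D3:**
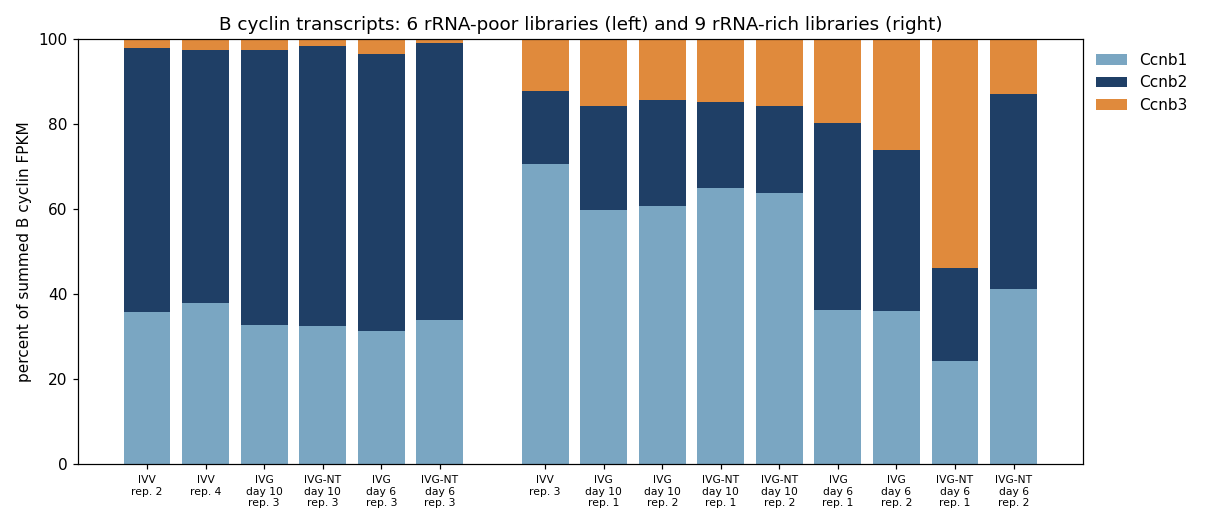
Share of Ccnb1, Ccnb2 and Ccnb3 in the summed FPKM of the 3 B cyclins, in percent, with one bar per library and FPKM taken by the summed exon length of each gene. The 6 rRNA-poor bars at the left are alike, with 59.4% to 65.8% Ccnb2, and in the 9 rRNA-rich bars at the right Ccnb3 takes 12.3% or more.

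Cdk1 had a lowest, median and highest level of 11.5, 50.5 and 72.4 CPM in rRNA-rich and of 82.1, 90.9 and 133 CPM in rRNA-poor libraries. The log2 fold change was -1.42 (SE 0.34, adjusted p = 0.00913 in edgeR's test), and the kinds did not overlap. The activating phosphatases lay on the other side of 0. Cdc25a, which acts with Cdc25b in meiotic resumption, had 32.2, 135 and 204 CPM in rRNA-rich against 10.6, 51.8 and 58.2 CPM in rRNA-poor libraries (1.61, SE 0.48, adjusted p = 0.0265). Cdc25b had 2.96, 111 and 166 CPM against 24.9, 39.6 and 45.9 CPM. Cdc25c had 0.903, 17.5 and 31.0 CPM against 6.71, 11.8 and 12.4 CPM, and its difference of 0.28 (SE 0.67) changed sign between settings (-0.07 to 0.86). For each Cdc25 the lowest rRNA-rich value, from a shallow IVG-NT day 6 library, lay among or below the rRNA-poor values, so the kinds overlapped. For Cdc25c the 11.7 CPM of the rRNA-rich IVV replicate 3 lay among the rRNA-poor values as well. The share of Cdc25b in the summed Cdc25 FPKM had a median of 56.2% in rRNA-poor and 54.9% in rRNA-rich libraries. The choice of length favours Cdc25b in this share. Its summed exons have 3728 bases and its principal transcript 3089, against 8023 and 3632 for Cdc25a and 4919 and 1945 for Cdc25c. Shares by transcript length were not computed, so which Cdc25 transcript was the most abundant is not settled. In IVG-NT day 6 replicates 1 and 2 Cdc25a held more, with 60.1% and 64.5% against 39.2% and 12.8% for Cdc25b.

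Wee2, the brake on Cdk1, had a lowest, median and highest level of 230, 258 and 276 CPM in rRNA-poor libraries and of 175, 536 and 630 CPM in rRNA-rich ones. The log2 ratio of Cdc25b to Wee2 in FPKM was -3.69 to -2.65 in rRNA-poor and -2.88 to -1.79 in rRNA-rich libraries, apart from the -7.42 of IVG-NT day 6 replicate 2. The activating phosphatase was thus below the inhibitory kinase at transcript level in every library.

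The 2 genes of the metaphase arrest moved in opposite directions. Mos had 120, 440 and 569 CPM in rRNA-rich and 791, 976 and 1235 CPM in rRNA-poor libraries (log2 fold change -1.39, SE 0.25, adjusted p = 0.00159 in edgeR's test). Fbxo43 had 137, 239 and 407 CPM against 53.3, 69.6 and 83.0 CPM (1.80, SE 0.29, adjusted p = 0.000582). The log2 ratio of Mos to Fbxo43 in FPKM was 4.99 to 5.90 in rRNA-poor libraries and -0.29 to 2.96 in rRNA-rich libraries, with no overlap. That follows from the 2 genes, each of which separated the kinds, in opposite directions.

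**Figure D4:**
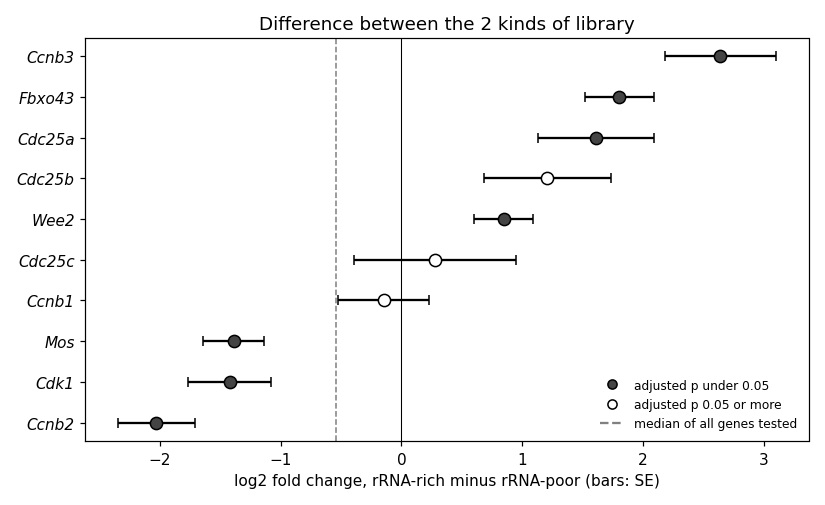
Log2 fold change between rRNA-rich and rRNA-poor libraries for the 10 regulators, with group as a covariate, as points with standard errors, filled where the adjusted p is under 0.05. Of the filled points, Ccnb3 (2.64), Fbxo43, Cdc25a and Wee2 lie above 0 and Mos, Cdk1 and Ccnb2 (-2.03) below it. Of the open points, Cdc25b (1.21) and Cdc25c (0.28) lie above 0 and Ccnb1 (-0.15) below it. The dashed line marks the median of all genes (-0.54).

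A property the choice of members did not use went with these differences. Across 15510 protein-coding genes tested, the difference between the kinds was higher for longer genes, by the length of the principal annotated transcript (Spearman's rho 0.514 across genes, which share the same libraries). The median log2 fold change was -2.92 for transcripts up to 1000 bases, -1.81 from 1000 to 1500, -0.97 from 1500 to 2000, 0.59 from 4000 to 6000 and 1.16 above 6000 bases. Mos, with 1449 bases, and Ccnb2, with 1531, were the shortest members and 2 of the 3 that were lower. Ccnb3 with 4554 and Fbxo43 with 4035 bases were among the longest and had the largest positive values. Cdk1 went against the trend, with a principal transcript of 4375 bases and a value of -1.42. The part of length, or of how either kind of library was made, in the differences of the members was not tested.

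**Figure D5:**
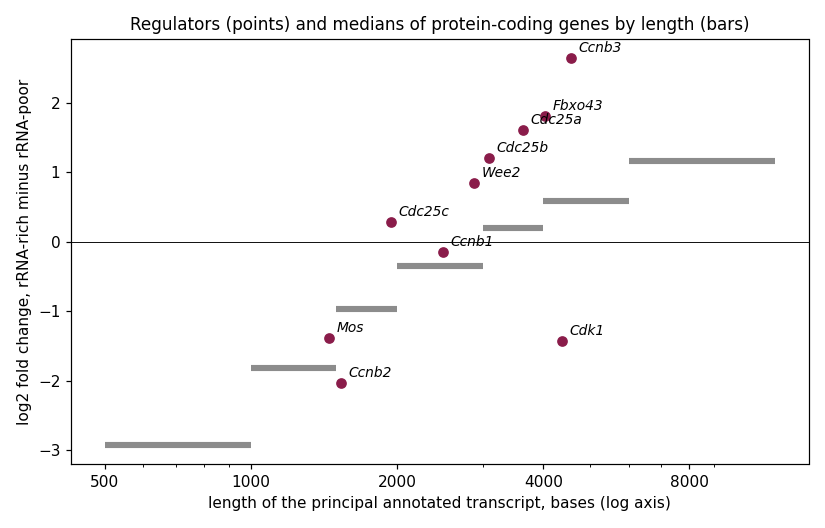
Log2 fold change between rRNA-rich and rRNA-poor libraries against the length of the principal annotated transcript in bases (log axis), with the 10 regulators as points and the median of protein-coding genes in 7 length classes as grey bars. The medians go from -2.92 to 1.16, and Cdk1 (-1.42 at 4375 bases) is the member farthest below the bar of its class.

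The wider pathway was read from 51 other genes in 7 lists. Their calls in the study's comparisons were no more frequent than those of all genes. In IVG against IVV 1 of 51 was called (1.96%, against 2.76% of all genes), in IVG-NT against IVV 1 (1.96%, against 3.29%), for NT-4 on day 10 and on day 6 0 (against 1.24% and 11.6%), for the days without NT-4 1 (1.96%, against 2.9%) and with it 3 (5.88%, against 12.7%). Adding the kind as a covariate changed the counts. They were then 3 higher and 1 lower in IVG against IVV (7.84%, against 3.83% of all genes), 0 in IVG-NT against IVV (against 4.31%), 1 lower for NT-4 on day 10 (1.96%, against 2.03%) and 2 higher and 3 lower for NT-4 on day 6 (9.80%, against 15.8%). For the days they were 2 higher and 1 lower without NT-4 (5.88%, against 4.86%) and 8 higher and 2 lower with it (19.6%, against 16.9%). Without that covariate, Mastl, the Greatwall kinase that restrains the phosphatase opposing Cdk1, was higher on day 10 in vitro than in IVV (log2 fold change 1.73 without and 1.66 with NT-4, SE 0.75 each, on the same IVV libraries), although the second call was lost with the covariate (1.41, unadjusted P = 0.0550), and it was higher on day 10 than on day 6 with NT-4 (2.10, SE 0.76). Ube2s, an E2 enzyme of the anaphase-promoting complex, was lower on day 10 than on day 6 without NT-4 (-1.52, SE 0.71) and with it (-1.65, SE 0.71). Plk1, the polo kinase that activates Cdc25, was higher on day 10 with NT-4 (1.61, SE 0.69). None of these passed the adjustment (smallest adjusted p = 0.357 in edgeR's test).

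Between the kinds of library 18 of the 51 were called (35.3%, near the 35.1% of all genes), 4 higher and 14 lower in rRNA-rich libraries, with a median of -0.34. Among 7 other cyclins and partners 1 was higher and 4 lower. Cks1b and Cks2, the small subunits that bind Cdk1, were lower (log2 fold changes -2.87, SE 0.28, and -3.42, SE 0.36), and Cdk2 was higher (1.93, SE 0.60). Among 17 genes of the anaphase-promoting complex and its regulators 1 was higher (Anapc1, 1.63, SE 0.27) and 6 lower, among them Cdc20 (-1.38, SE 0.28) and Ube2c (-2.08, SE 0.43). Of 8 genes of the Greatwall branch 2 were lower, including Arpp19, the substrate of Mastl (-2.12, SE 0.27). Of 7 polo kinase and Cdc25-binding genes 2 were higher, Ywhag (3.92, SE 0.29) and Ywhaz (3.12, SE 0.29), which encode 14-3-3 proteins, and 2 were lower. In the 2 other inhibitory kinases, the 3 genes of the Cdk-activating kinase and the 7 of the MAPK branch, 0 were called.

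Over the 15 libraries the gene most like each member, by Pearson's r of log2 CPM among 8188 protein-coding genes with a mean of at least 10 CPM, was Nbeal1 for Cdc25b (0.99), Zfp108 for Wee2 (0.99), Clasp2 for Fbxo43 (0.98), Tbc1d1 for Ccnb3 (0.97), Psma3 for Mos (0.97), Fbxw15 for Ccnb2 (0.96), Trnt1 for Cdc25c (0.96), Sphk2 for Cdc25a (0.95), Zfp60 for Cdk1 (0.93) and Ythdf3 for Ccnb1 (0.90). In the 9 rRNA-rich libraries alone these correlations were 0.77 (Fbxw15) to 0.99 (Trnt1). In the 6 rRNA-poor ones they were lower for several pairs, with 0.33 for Trnt1, 0.37 for Tbc1d1, 0.47 for Zfp108, 0.58 for Psma3 and 0.63 for Ythdf3, and the highest was 0.99 for Sphk2. Among the members themselves Ccnb3 and Fbxo43 had r = 0.97 over all libraries and 0.87 in the rRNA-rich ones, and Ccnb2 and Cdk1 had 0.81 and 0.84. Ccnb3 and Mos ran opposite, with -0.87 and -0.61. Other pairs depended on the kind: Ccnb2 and Fbxo43 had -0.82 over all libraries and 0.08 in the rRNA-rich ones, Ccnb2 and Ccnb3 -0.73 and 0.36, Ccnb2 and Mos 0.75 and 0.07, and Wee2 and Mos -0.22 and 0.87. The points share libraries, depth and kind, so these are descriptions.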

How the data were processed

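RNA of germinal vesicle oocytes, 6 per library, was amplified with SMART-Seq2 (primed on poly(A) tails, without molecular identifiers or strand) and sequenced paired-end. The authors removed adaptors and bases of low quality, aligned reads to mm10 with HISAT2, and deposited per library the raw, unnormalized counts of Ensembl genes. How counts per gene were taken is not given in the sources used here. PCR copies count more than once, so counting error is a lower limit, and replicate libraries differed by a chi-square of 48.4 to 1605 per gene. A joined table of the same counts was not used. Groups and replicate numbers come from the sample titles.

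The analysis used edgeR 4.0.16 in R 4.3.3: filterByExpr (minimum count 10), TMM, 1 quasi-likelihood fit of 15 libraries, Benjamini-Hochberg adjustment over 21009 genes, and for the kinds of library group as a covariate. DESeq2 1.42.0 and edgeR's exact test were alternatives. Simulated counts with planted changes were used to check the fit. They held no difference between the kinds apart from planted changes, so the check does not cover the spread that the kinds add to the group comparisons. FPKM were computed from the counts, the union of exons and the library total. The members, lists and tests were chosen with earlier results of these data known, as were the 5% rRNA limit, the interaction tests and the setting that leaves out libraries under 10 M counts. All 10 members are named, other pathway genes only where called, and per member the 1 gene most like it. Deviations from the group mean in same-numbered libraries correlated over 0.1 in every pair for NT-4 on day 10 (0.37 to 0.73) and for the days without NT-4 (0.15 to 0.54). They did not in the other comparisons. Same-numbered in vitro libraries are of the same kind, and the kind was not removed, so these correlations cannot tell pairing by replicate from the kind.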

Additional observations from a re-analysis of the deposited data

Results flagged for a closer look

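One result stood out because an effect differed between sets of libraries. The change of Ccnb1 from day 6 to day 10 differed between rRNA-rich and rRNA-poor libraries by 2.18 on the log2 scale (SE 0.66, unadjusted P = 0.00646, adjusted p = 0.724 in edgeR's quasi-likelihood test), with 8 rRNA-rich and 4 rRNA-poor libraries. It went up in 4 of 4 rRNA-rich pairs and in 0 of 2 rRNA-poor pairs, and it fails the correction for all genes. The rRNA-rich pairs with NT-4 rest on the shallow IVG-NT day 6 replicates 1 and 2 (5.95 M and 7.13 M counts). The rRNA-poor pair with NT-4 rests on IVG-NT day 6 replicate 3, whose 736 CPM was the highest Ccnb1 value of all 15 libraries. Groups of 3 libraries are too small for a test of single outlying libraries, so none was made.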

How the results depend on the processing

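Each study comparison was run under 15 alternatives and the comparison of the kinds under 21. For NT-4 on day 10 the count of called members was 0 under all 15. It became 1 (Cdk1) for IVG against IVV with the kind as a covariate and in rRNA-rich libraries alone, 1 (Cdk1) for IVG-NT against IVV in rRNA-rich libraries alone, 1 (Ccnb1) for IVG day 10 against day 6 in rRNA-rich libraries alone, and 2 (Ccnb1 and Cdc25b) for IVG-NT day 10 against day 6 in rRNA-rich libraries alone. For NT-4 on day 6 it was 0 with DESeq2 size factors and 0 where the fit held the 2 groups alone. Leaving out single libraries gave 0 to 2 for NT-4 on day 6 (0 without IVG-NT day 6 replicate 2, IVG day 6 replicate 1 or IVG day 6 replicate 2, and 2, with Cdc25c, without IVG-NT day 6 replicate 3) and 0 to 2 for IVG-NT day 10 against day 6 (Cdc25b without IVG-NT day 10 replicate 3, and Ccnb1 and Cdc25c without IVG-NT day 6 replicate 3). Without IVG-NT day 6 replicate 3 the median log2 fold change of all genes was -1.13 for NT-4 on day 6 and 1.27 for IVG-NT day 10 against day 6. Among the alternatives of the study comparisons, the share of all genes called was computed only with the kind as a covariate. In rRNA-rich libraries alone IVV is 1 library, assumed to vary like the other groups. The cause was not tested. With the replicate number as a block the count was 1 for NT-4 on day 6 (Cdc25b, -2.22) and 0 in the other 5 comparisons, so the replicate block changed no count. Between the kinds the count was 6 to 8 over the 21 alternatives. DESeq2 size factors moved the median of all genes from -0.54 to -0.71 between the kinds, from 0.40 to 0.04 for IVG-NT day 10 against day 6 and from -0.27 to 0.00 for NT-4 on day 6. Relative to the median, Cdc25b on day 6 was -2.05 with TMM and -1.84 with DESeq2 size factors. With 5.95 M and 7.13 M counts, IVG-NT day 6 replicates 1 and 2 set the limit for low genes such as Cdc25c, at 5 and 40 counts.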
